A study of Mus musculus with 4 samples.

Results

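Heat shock proteins and molecular chaperones are described here in mouse blood stem and early progenitor cells that lack or carry the zinc finger transcription factor Klf7. Members were taken by gene symbol: the Hsp70 family (Hspa and Hsph), the Hsp90 family, the small heat shock proteins (Hspb), the mitochondrial chaperonin pair Hspd1 and Hspe1, the J-domain proteins (Dnaja, Dnajb and Dnajc) and the cytosolic chaperonin CCT (Tcp1 and Cct genes). The rule found 80 of the 19938 genes that the array annotation named. Of these, 13 were Hsp70 genes, 2 Hsp90, 8 small heat shock, 4 Dnaja, 13 Dnajb, 28 Dnajc, 2 mitochondrial chaperonin and 10 CCT genes. No filter on low values was used, so all 80 were tested. The inducible gene Hspa1b shared its only probe set with a second symbol, and Hsp90ab1, the constitutive cytosolic Hsp90, had no probe set under its symbol alone, so neither was analysed here.

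Chaperones bind unfolded or partly folded proteins and help them to reach their native state. Hsp70 proteins do this in cycles of ATP hydrolysis that J-domain proteins start and nucleotide exchange factors reset, Hsp90 receives a set of clients from Hsp70, small heat shock proteins hold unfolded protein without ATP, and chaperonins enclose a chain inside a barrel. In the cytosol the inducible genes are driven by heat shock factors, which bind repeats of GAA and TTC called heat shock elements (HSE). In the endoplasmic reticulum (ER) the unfolded protein response drives its own set, in part through the ER stress response element (ERSE). Blood stem cells make protein slowly, and protein quality control is a known concern of these cells.

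Transcript levels came from 4 Affymetrix Gene 1.0 ST arrays of KLS (Lin- c-Kit+ Sca-1+) cells from bone marrow, a population of stem and multipotent progenitor cells. The labels give 2 arrays of Klf7-/- cells and 2 of Klf7+/+ cells, on a C57Bl/6 background in both groups. Both genotypes came out of chimeric mice that had been built with fetal liver cells, and no agent was given to either group by the labels. No source used here gives age, sex or the number of mice or embryos behind each array, so the p-values reflect variation among these 4 samples alone, and that variation may be technical. Values are log2 of the deposited intensity per probe set. A difference is always knockout minus wild type in log2 units and is followed by limma's standard error (SE, moderated over all probe sets), n = 2 per group. Adjusted p-values are from limma with the Benjamini-Hochberg method across the 28939 probe sets that were tested, and the threshold was 0.05. A gene was said to have no overlap where both knockout arrays lay on the same side of both wild-type arrays. The arrays are called knockout 1 and 2 and wild type 1 and 2 after the numbers in their titles.

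The targeted transcript did not mark the knockout arrays. Klf7 read 6.59 and 6.18 in the knockout arrays against 5.95 and 6.10 in the wild-type arrays, a difference of 0.36 ± 0.21 (SE, limma adjusted p = 0.95). No source used here says whether its probes lie in the deleted part. Median intensity per array was 51.01 to 52.26. Kit, which defines the gate, read 10.12 and 9.92 against 9.55 and 9.71, and the 8 measured genes of the gate and stem cell list summed to 4758 and 4717 intensity units in knockout against 3758 and 3385 in wild type. That list had 7 genes higher and 1 lower, the stem cell factor Mecom, at 6.25 and 6.13 against 7.20 and 6.59 (-0.71 ± 0.25, no overlap), named after its values were seen. Xist, expressed from the inactive X chromosome, read 11.76 and 11.58 against 5.24 and 4.8 (6.65 ± 0.22, limma adjusted p = 0.0454), and the Y-linked Eif2s3y read 2.86 and 2.94 against 6.85 and 8.11. Sex of the cells and genotype therefore cannot be told apart. No chaperone gene lay on the X or Y chromosome. Early response genes, a list of 16 that rise within minutes of handling, were lower in knockout in 16 of 16, against 55% of all genes. All 16 lay above the median level of all genes, where 48.7% of genes were lower. Of the 16, 10 showed no overlap, where 18.6% of all genes were lower without overlap. Their median was -0.42, and their sum was 5755 and 6766 against 9135 and 8256. Summed markers of T, B, erythroid, megakaryocytic and granulocytic cells overlapped between groups, and these sums rest on the brightest genes of each list. Named after their values were seen, the neutrophil elastase gene Elane (-1.07 ± 0.40) and the platelet gene Ppbp (1.24 ± 0.33) were each at least 2-fold apart without overlap, neither past the limma threshold. Their lists were mixed. Of 7 granulocyte markers 4 were higher and 3 lower, and of 4 megakaryocyte and platelet markers 3 were higher and 1 lower. Also named after their values were seen, the T cell gene Lat was higher without overlap (0.62 ± 0.22), while the other 5 T cell markers were lower. The B cell gene Vpreb1 was high in knockout 1 alone, at 8.59. The 4 measured monocyte and macrophage markers summed to 365 and 365 against 379 and 416. No marker was listed at 0. In bulk RNA fewer cells of a type and less RNA per cell cannot be told apart, and the part of sex, handling or other cells in the chaperone values was not tested.

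No chaperone gene passed the test in either direction. Limma called 1 of the 28939 probe sets, which is 0.00346%. With each gene read from its probe set of highest mean, the smallest limma adjusted p among the 80 chaperone genes was 0.945. Among their other probe sets it was 0.648, for one of Dnajc13. Both knockout arrays lay above both wild-type arrays in 13 chaperone genes (16.2%, against 14.5% of all genes) and below them in 15 (18.8%, against 18.6% of all genes). The remaining 52 overlapped. On these probe sets only Hspa1a was at least 2-fold apart with no overlap, 1 of 80 or 1.25% against 1.22% of all genes. Several other probe sets of Dnajc13, given below, were also at least 2-fold apart without overlap, in both directions. Unadjusted limma p was under 0.05 for Hspa1a and Hspa5, 2.5% of the members against 4.81% of all genes. Each of these shares lay near its background or below it. The shares of all genes, 14.5% higher and 18.6% lower, are also the background for the no-overlap counts of each class and list below.

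The differences of the 80 genes were balanced around 0, with 39 higher and 41 lower in knockout, a median of -0.00 and quartiles of -0.17 and 0.20. All named genes had a median of -0.03 and quartiles of -0.18 and 0.13. Arrays of the same genotype were about as far apart as arrays of different genotype. The median absolute difference over the 80 genes was 0.23 for the knockout pair and 0.22 for the wild-type pair, compared with 0.22 to 0.26 for the 4 pairs of unlike genotype. Members at least 2-fold apart numbered 4 in the knockout pair, 7 in the wild-type pair and 2 to 7 in the mixed pairs. The intensities of the 80 genes summed to 31960 and 29478 in knockout and to 31170 and 31282 in wild type, where knockout 1 was the highest array and knockout 2 the lowest. Of the 80 genes, 60 lay above the median level of all genes, which was 5.77. These 60 had 33 higher (55%, against 51.3% of all genes above that level) and 27 lower, with a median of 0.01. Without overlap 9 were higher and 10 lower, beside 1784 higher and 1487 lower of all 9969 genes above that level. The 20 dimmer genes had 6 higher and 14 lower (70%, against 55% of all genes, bright and dim), a median of -0.07 and a range of -1.04 to 0.61. Without overlap 4 of them were higher and 5 lower, where all genes had 14.5% and 18.6%. Of the 55 chaperone and partner genes named below, 44 reversed or moved by over 1.5 times when 1 array was left out. The other 11 were the chaperones Hspa1a, Hspa5, Hspb2, Hsp90aa1 and Cct4 and the partners Sil1, Fkbp5, Ppid, Xbp1, Atf4 and Clpx. The plot of differences by class shows how few genes left the band around 0.

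**Figure D1:**
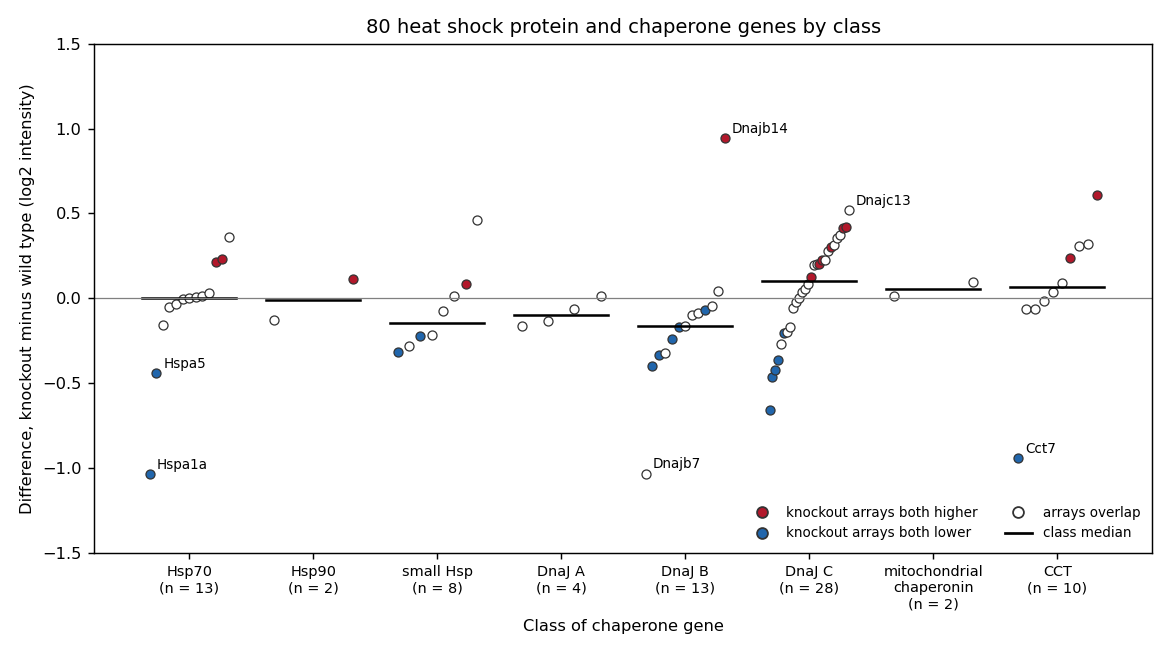
Difference of each of the 80 chaperone genes, knockout minus wild type in log2 intensity (vertical axis), by class (horizontal axis), with class medians as bars. Red and blue points mark genes whose knockout arrays both lay above or below both wild-type arrays. Most points lie close to 0, with Hspa1a (-1.04), Dnajb7 (-1.04, overlapping arrays) and Cct7 (-0.94) far below and Dnajb14 (0.94) far above, and 11 of 13 DnaJ B genes lie below 0.

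Among the cytosolic Hsp70 genes, the stress-inducible Hspa1a was lower in both knockout arrays, while the constitutive Hspa8 and Hspa4 hardly differed. Hspa1a encodes the Hsp70 that cells make in large amounts after heat. Its levels were 5.50 and 5.49 in knockout against 6.40 and 6.66 in wild type. The knockout arrays were nearly equal and the wild-type arrays both lay well above them. The difference was -1.04 ± 0.17 (SE, 95% confidence interval -1.49 to -0.58), or 2.05-fold lower, with a limma adjusted p of 0.945, so it did not pass the test. With any 1 array left out the difference stayed between -1.17 and -0.91. Hspa1a has a near-identical neighbour in Hspa1b, so the copy behind this signal is uncertain. A probe set listed for both Hsp70 symbols read 6.34 and 6.19 in knockout against 6.07 and 6.32 in wild type, with overlap (0.07 ± 0.18). The 2 probe sets therefore did not show the same pattern.

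The bases before the Hspa1a start site are shown because this gene had the lowest difference of all 80. They are the 200 bases upstream of the RefSeq start on GRCm38.p6, minus strand, chr17:34972157-34972356, 5′ to 3′, with a pair of facing HSE units in capitals.
Hspa1a: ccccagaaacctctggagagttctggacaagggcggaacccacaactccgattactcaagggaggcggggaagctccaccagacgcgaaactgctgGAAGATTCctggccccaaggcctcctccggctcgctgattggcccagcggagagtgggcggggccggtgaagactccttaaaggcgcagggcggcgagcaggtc
The capitals mark GAAGATTC, a match to GAANNTTC that spans bases 104 to 97 before the start. Matches were searched on both strands in a window of 250 bases before to 50 after each start, for a pair of units (GAANNTTC or TTCNNGAA) and for a run of 3 units (GAANNTTCNNGAA or TTCNNGAANNTTC), where every longer match also holds the shorter one. RefSeq windows were found for 66 of the 80 genes. The pair stood in 19 of 66 (28.8%), against 17.0% of 27025 genes, and the longer run in 4 of 66 (6.06%), against 0.662%. A match is a description of letters and not of binding.

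Of the other Hsp70 genes, Hspa5 (-0.44) and Hspa14 (0.36) are given below, and those named here showed smaller differences. Hspa8, the constitutive cytosolic Hsp70 (Hsc70), read 11.98 and 11.94 in knockout against 11.90 and 12.12 in wild type (-0.05 ± 0.17), and its 3 probe sets gave -0.05 to 0.05. Hspa4, a member of the Hsp110 branch that exchanges nucleotide on Hsp70, read 9.12 and 8.92 against 8.96 and 9.06 (0.00 ± 0.17). Its relative Hsph1 (Hsp105), which is heat inducible, read 7.43 and 7.30 against 7.02 and 7.24, so both knockout arrays were higher by a small margin (0.23 ± 0.17). On the probe sets used, Hspa8 and Hspa4 overlapped between groups and Hsph1 did not. Hspa9, the mitochondrial Hsp70 (mortalin), read 9.97 and 9.60 against 9.73 and 9.82, with overlap (0.01 ± 0.20). Over the whole Hsp70 class 7 genes were higher and 6 lower, with a median of 0.00 (-0.08 to 0.05 with 1 array left out), and 2 showed no overlap in each direction. The split became 5 higher and 8 lower after repeated quantile normalization. Across the 12 measured heat-inducible members of all classes, 6 were higher and 6 lower, with a median of -0.01 (-0.08 to 0.12 with 1 array left out), and Hspa1a alone among them was 2-fold apart. That list counts Hspa8, although it is named constitutive above, and the constitutive list leaves it out. The 14 measured constitutive cytosolic members had 6 higher, 8 lower and a median of -0.04 (-0.02 to 0.08).

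Among ER chaperones, Hspa5 was lower in both knockout arrays, and the other ER genes did not share one direction. Hspa5 (BiP, GRP78) is the Hsp70 of the ER and holds the sensors of the unfolded protein response in check. It read 10.20 and 10.30 in knockout against 10.68 and 10.71 in wild type. Both groups were tight and did not overlap. The difference was -0.44 ± 0.15 (95% confidence interval -0.85 to -0.04), or 1.36-fold lower, with a limma adjusted p of 0.945, and it stayed between -0.49 and -0.39 with any 1 array left out. Hsp90b1 (GRP94), the Hsp90 of the ER, read 11.11 and 10.45 against 10.92 and 10.90. The 2 knockout arrays stood on either side of the wild-type arrays, and the difference of -0.13 ± 0.26 became 0.20 without knockout 2. Dnajb11 (ERdj3), a J protein that passes substrates to BiP, read 7.89 and 7.40 against 8.05 and 7.90, lower with no overlap by a margin in the second decimal (-0.33 ± 0.23). Knockout 2 carried this value, which was -0.09 without it and -0.58 without knockout 1. Dnajb9 (ERdj4), another BiP partner, read 8.07 and 7.55 against 7.62 and 8.65, where wild type 2 was the highest array (-0.32 ± 0.41, and 0.19 without it). Dnajc3 (p58IPK), an ER J protein that acts with BiP, read 9.0 and 9.33 against 9.32 and 8.30 (0.35 ± 0.38, and -0.15 without wild type 2), and was named after its values were seen. Dnajc1 (ERdj1), an ER membrane J protein that binds ribosomes, read 7.53 and 6.94 against 7.34 and 6.39 (0.37 ± 0.40), and its difference was 0.85 without wild type 1 and -0.11 without wild type 2. The ER list of 9 genes leaves out Dnajb14 and Dnajc14, J proteins of the ER membrane given below with their classes. Of the 9 genes 5 were higher and 4 lower, with a median of 0.01 (-0.11 to 0.08 with 1 array left out), and 4 were higher and 5 lower after repeated quantile normalization. Of the listed 9, Hspa5 and Dnajb11 were lower without overlap, and Dnajc25, which read 5.80 and 5.90 against 5.71 and 5.74, was higher without overlap (0.12 ± 0.15).

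Promoter windows of 3 ER members held the ERSE, spelled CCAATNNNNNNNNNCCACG and searched on both strands, and they are shown because these genes share the element while Hspa5 alone of them showed no overlap between groups. The Hspa5 stretch is the 200 bases before the start at chr2:34771890-34772089, plus strand. The Hsp90b1 stretch, at chr10:86705607-86705686 on the minus strand, runs from 242 to 163 bases before the start. The Dnajc3 stretch, at chr14:118937797-118937876 on the plus strand, runs from 135 to 56 bases before it. All are RefSeq, GRCm38.p6, 5′ to 3′, with the ERSE in capitals.
Hspa5: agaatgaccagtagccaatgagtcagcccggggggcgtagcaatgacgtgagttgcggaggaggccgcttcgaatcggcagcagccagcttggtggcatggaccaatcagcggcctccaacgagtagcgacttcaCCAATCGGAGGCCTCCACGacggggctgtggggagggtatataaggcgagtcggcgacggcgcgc
Hsp90b1: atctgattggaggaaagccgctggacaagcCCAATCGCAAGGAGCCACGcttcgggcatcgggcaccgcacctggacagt
Dnajc3: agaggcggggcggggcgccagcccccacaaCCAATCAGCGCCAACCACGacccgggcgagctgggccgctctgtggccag
The Hsp90b1 window held a further match on the other strand, nearer the start. The element stood in 3 of 66 windows of chaperone genes (4.55%) against 0.137% of all genes with a window. Beside these sequences, Hspa5 was lower without overlap (-0.44), while Hsp90b1 (-0.13) and Dnajc3 (0.35) overlapped between groups and each changed sign when 1 array was left out.

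The cytosolic Hsp90 gene was slightly higher in knockout, within its error. Hsp90aa1 encodes the inducible Hsp90 that stabilises kinases and steroid receptors. It read 11.23 and 11.16 against 11.10 and 11.07, with no overlap and a difference of 0.12 ± 0.15. Its 3 probe sets all lay above 0, at 0.08 to 0.12, of which the one used here lies among probe sets of another chromosome in the ID order. The probe set that lies among genes of its own chromosome gave 0.08, with overlapping arrays.

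Small heat shock proteins form oligomers that hold unfolded chains, and many act in muscle. Hspb1 (Hsp25 in mouse), the widely expressed inducible member, read 5.03 and 5.59 against 5.59 and 5.47. Only knockout 1 stood low, and the difference of -0.22 ± 0.24 became 0.06 without it. Its other probe set, among genes of its own chromosome, read 5.05 and 5.32 against 5.51 and 5.41, lower without overlap (-0.27 ± 0.18). Hspb2, a muscle-type member, read 5.95 and 5.96 against 6.22 and 6.33, lower without overlap (-0.32 ± 0.15). Hspb11, which despite its name is a component of intraflagellar transport (IFT25), read 7.38 and 7.28 against 6.03 and 7.71. The wild-type arrays stood on either side of the knockout arrays, and the difference of 0.46 ± 0.57 became -0.38 without wild type 1 and 1.3 without wild type 2. Of the 8 genes 3 were higher and 5 lower, with a median of -0.15 that became 0.04 without knockout 1.

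J-domain proteins bring substrates to Hsp70 and start its ATP cycle, and they fall into types A, B and C by domain layout. On the probe sets used, the 4 Dnaja genes all overlapped between groups. Dnaja1, a general Hsp70 partner in the cytosol, read 10.68 and 10.64 against 10.64 and 10.94, where wild type 2 alone was high (-0.13 ± 0.18). Its probe set among genes of its own chromosome read 8.54 and 8.55 against 8.62 and 8.65, lower without overlap by a small margin (-0.09 ± 0.15). Dnaja2, a constitutive partner of Hsc70, read 8.49 and 8.22 against 8.58 and 8.46 (-0.16 ± 0.18). In the class 1 gene was higher and 3 lower, or 0 and 4 after cyclic loess, and the median of -0.10 ran from -0.13 to -0.04 with 1 array left out.

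Dnajb genes were mostly lower in knockout, by small amounts and with no gene past the test. Of 13, 11 were lower (84.6%, against 55% of all genes), with a median of -0.16. Without overlap 5 were lower and 1 higher, where all genes had 18.6% lower and 14.5% higher. The count of lower genes was 8 to 11 and the median -0.26 to -0.09 with any 1 array left out. That count was 11 after cyclic loess and after repeated quantile normalization. Probe sets shared between a Dnajb gene and another symbol were used for no gene, and all were higher. Those listed for Dnajb6 and a predicted gene showed no overlap (0.57 to 0.68). Those listed for Dnajb14 and Pin4 overlapped (0.67 and 0.64). Dnajb1 (Hsp40), the heat-inducible partner of Hsp70, read 6.61 and 6.80 in knockout against 6.81 and 6.94 in wild type. The nearest arrays of the groups differed only in the second decimal, and the difference was -0.17 ± 0.17. Dnajb14, an ER membrane J protein, went the other way at 7.33 and 5.72 against 5.45 and 5.72 (0.94 ± 0.56). Knockout 1 alone stood high, knockout 2 equalled wild type 2 at this precision, and the difference without knockout 1 was 0.14. Dnajb7 matched Hspa1a in size (-1.04 ± 0.84) but had a low signal, at 3.71 and 3.44 against 3.36 and 5.86, where wild type 2 alone was high. Dnajb7 was named after its values were seen.

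Dnajc genes, the largest and most varied class, had 17 higher and 11 lower, with a median of 0.10. Without overlap 6 were higher and 5 lower, where all genes had 14.5% and 18.6%. The median was 0.04 without knockout 2 and 0.16 without knockout 1, and 19 genes were higher after cyclic loess. Those higher without overlap included Dnajc6 (auxilin), which uncoats clathrin vesicles with Hsc70 and read 7.45 and 7.55 against 7.23 and 6.93 (0.42 ± 0.18). Dnajc21, which takes part in ribosome maturation, read 7.26 and 7.10 against 6.75 and 7.01 (0.30 ± 0.18). Dnajc14, an ER membrane J protein, read 7.08 and 6.89 against 6.83 and 6.68 (0.23 ± 0.17). Dnajc19, of the mitochondrial import motor, read 7.41 and 7.74 against 7.39 and 7.35 (0.20 ± 0.19), with knockout 1 and wild type 1 almost level. In each of these 4 genes both knockout arrays lay above both wild-type arrays.

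Of the 5 Dnajc genes lower without overlap, Dnajc18 (-0.66 ± 0.31) and Dnajc30 (-0.21 ± 0.17) were named after their values were seen. The other 3 were Dnajc8, Dnajc4 and Dnajc2. Dnajc8, a nuclear protein linked to splicing, read 9.22 and 9.10 against 9.82 and 9.35 (-0.42 ± 0.22). Dnajc4, a little studied mitochondrial member, read 6.35 and 6.44 against 7.04 and 6.68 (-0.46 ± 0.19). Dnajc2 (zuotin, MPP11), which sits on ribosomes and serves nascent chains with Hspa14, read 8.04 and 8.07 against 8.28 and 8.55 (-0.36 ± 0.18). Hspa14 itself read 7.67 and 8.13 against 7.36 and 7.73, higher with overlap (0.36 ± 0.25), and was named after its values were seen. The ribosome-bound partners thus had differences of opposite sign, neither past the test. Dnajc15, a mitochondrial import protein, was split within each group, at 8.32 and 6.68 against 6.24 and 8.30 (0.23 ± 0.88), with 1 array high and 1 low in each.

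**Figure D2:**
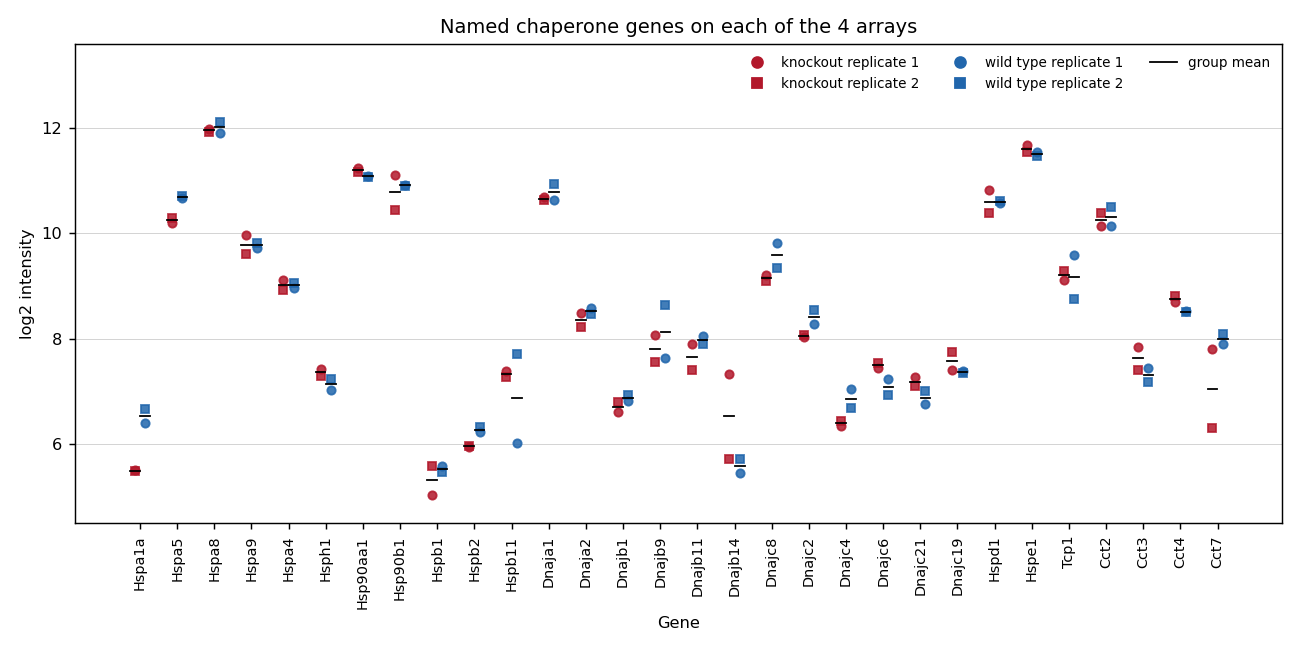
Level of a selection of the named chaperone genes (horizontal axis) on each array in log2 intensity (vertical axis). Circles are replicate 1, squares replicate 2, red knockout and blue wild type, with bars for group means. Other named genes, such as Dnajc13, Dnajc15 and Dnajb7, are not drawn here. Levels of different genes come from different probes and are not to be compared. Hspa1a and Hspa5 separate cleanly by genotype, at 5.50 and 5.49 against 6.40 and 6.66 and at 10.20 and 10.30 against 10.68 and 10.71. By contrast, Dnajb14 and Cct7 each turn on 1 array, and the wild-type arrays of Hspb11 stand on either side of its knockout arrays.

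Dnajc13 (RME-8), a J protein that works with Hsc70 on endosomes, was measured by 15 probe sets that did not share a direction. Its probe set with the highest mean, the one used above, read 9.16 and 8.71 in knockout against 9.59 and 7.25 in wild type, where wild type 2 alone was low. The difference of 0.52 ± 0.80 became -0.65 without wild type 2, and the mean of all 15 probe sets gave -0.42. Over the 15 probe sets, 8 were higher and 7 lower, with 3 higher and 6 lower without overlap. This gene's other probe sets were singled out after their values were seen. In the order of their IDs the higher and lower ones fell into runs. The first, whose ID ends in 231, differed by -0.31, and the next 8, ending in 255 to 269, were all higher in knockout by 0.16 to 1.36. The last 6, ending in 271 to 281, were all lower, by -3.41 to -0.52, and none of those 6 overlapped between groups.

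The sign changed between the probe set ending in 269, whose arrays overlapped (0.52 ± 0.80, above), and the one ending in 271. The highest difference of Dnajc13 was further back, at 265, which read 8.44 and 9.21 in knockout against 8.34 and 6.60 in wild type (1.36 ± 0.65). The one ending in 271 read 6.66 and 5.81 against 9.30 and 9.99 (-3.41 ± 0.39, limma adjusted p = 0.648). The next, 273, read 7.47 and 5.06 against 8.99 and 9.49 (-2.98 ± 0.82), and the one ending in 275 read 7.27 and 5.36 against 9.01 and 9.39 (-2.88 ± 0.66). For Dnajc13 the probe sets ending in 277, 279 and 281 followed with -1.72 ± 0.31, -1.23 ± 0.32 and -0.52 ± 0.24. None of these passed the test, and the exons under each probe set were not analysed here. Differences between probe sets of Dnajc13 spanned 4.76 on the log2 scale, the second widest span of the 24 genes with at least 10 probe sets, whose median span was 1.60.

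**Figure D3:**
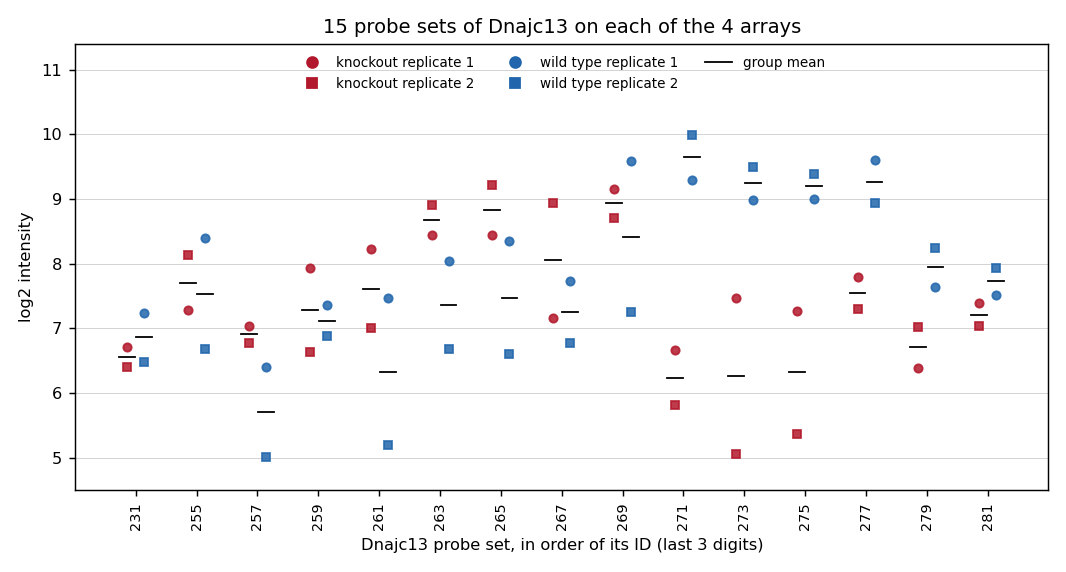
Log2 intensity (vertical axis) of the 15 Dnajc13 probe sets in the order of their IDs, labelled by the last 3 digits (horizontal axis), on each array, with bars for group means. Knockout arrays average above wild-type arrays from 255 to 269, by 0.16 to 1.36, and below them from 271 to 281, with the widest gap at 271 (-3.41).

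The mitochondrial chaperonin, a barrel of Hspd1 (Hsp60) capped by Hspe1 (Hsp10), did not differ beyond its error. Hspd1 read 10.82 and 10.39 against 10.58 and 10.61 (0.01 ± 0.21, 95% confidence interval -0.54 to 0.56), with the knockout arrays on either side of the wild-type arrays. Hspe1 read 11.67 and 11.54 against 11.55 and 11.47, with overlap (0.10 ± 0.16, interval -0.32 to 0.51). For each gene the other probe set, which lies among genes of its own chromosome, gave nearly the same answer, 0.08 for Hspd1 and 0.10 for Hspe1. These intervals leave room for changes of up to about the size seen for Hspa5. Of 10 mitochondrial members 8 were higher and 2 lower, with a median of 0.04 (-0.07 to 0.10 with 1 array left out), and the split became 5 and 5 after cyclic loess. Hspd1 and Hspe1 face away from each other across a shared promoter, which is shown because it holds the longer HSE run. The stretch is RefSeq, GRCm38.p6, chr1:55088024-55088103, plus strand, 124 to 45 bases before the Hspe1 start, with overlapping HSE units in capitals.
Hspe1: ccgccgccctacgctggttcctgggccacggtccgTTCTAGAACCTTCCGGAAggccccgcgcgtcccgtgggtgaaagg
Of the 4 genes with the longer HSE run, Hspd1 and Hspe1 differed by 0.01 and 0.10, Dnajb6 by -0.09 and Hsph1, whose match lies after its start site, by 0.23.

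CCT, the cytosolic chaperonin that folds actin and tubulin, showed no common shift of its subunits. Of 10 genes 6 were higher and 4 lower, with a median of 0.06 that was 0.01 without wild type 2 and 0.22 without wild type 1, and 2 were higher and 1 lower without overlap. Tcp1, the alpha subunit, read 9.12 and 9.29 against 9.59 and 8.75, inside the wild-type spread (0.04 ± 0.32). Cct2 read 10.13 and 10.38 against 10.14 and 10.51 (-0.06 ± 0.21). Cct3 read 7.85 and 7.41 against 7.45 and 7.17, with overlap (0.32 ± 0.23), and Cct4 read 8.69 and 8.81 against 8.52 and 8.50, higher without overlap (0.24 ± 0.16). Cct7 stood out with 7.80 and 6.30 against 7.91 and 8.09 (-0.94 ± 0.52, limma adjusted p = 0.949). Knockout 2 alone was low, and the difference was -0.19 without it and -1.69 without knockout 1. The complex holds its subunits in equal number, and their differences ran from -0.94 for Cct7 to 0.32 for Cct3 among the subunits above the median level.

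The partners of the chaperones were read from lists of related genes, and in none did a gene pass the limma threshold in either direction. Heat shock factors and their regulator Hsbp1 were higher in 4 of the 4 genes measured, of 5 listed. Hsf1, the main factor of the heat response, was the one not analysed here. Their median of 0.15 ranged from -0.03 to 0.34 with 1 array left out. Hsbp1, which binds heat shock factor 1 and restrains it, read 8.21 and 9.02 against 7.86 and 8.19, higher without overlap (0.59 ± 0.32, and 0.19 without knockout 2). Hsf2, a factor active in development, read 5.73 and 6.08 against 6.02 and 5.48, with overlap (0.15 ± 0.26, and -0.12 without wild type 2).

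Cochaperones of Hsp70 and Hsp90 were spread wide, with 8 of 26 higher and 18 lower (69.2%, against 55% of all genes) and a median of -0.13. Of the 26, 25 lay above the median level of all genes, where 48.7% of genes were lower. Without overlap 7 of the 26 were higher and 5 lower, where all genes had 14.5% and 18.6%. Leaving out 1 array gave 12 to 16 lower and medians of -0.21 to 0.02. Sil1, the nucleotide exchange factor of BiP in the ER, read 6.97 and 6.37 in knockout against 7.85 and 7.73 in wild type. The arrays did not overlap between groups, and the difference of -1.12 ± 0.25 did not pass the test (limma adjusted p = 0.945). Sil1 was the only cochaperone at least 2-fold apart without overlap, a mark that 1.22% of all genes reached. Ahsa1 (Aha1), which speeds the ATPase of Hsp90, read 8.75 and 9.49 against 8.06 and 8.33, higher without overlap (0.93 ± 0.30). Named after their values were seen, the Hsp90-binding prolyl isomerases Fkbp5 and Ppid and the kinase-loading factor Cdc37 also showed no overlap. Fkbp5 read 6.57 and 6.29 against 5.91 and 5.49 (0.73 ± 0.22), and Ppid read 8.36 and 8.54 against 7.95 and 8.04 (0.45 ± 0.16). Cdc37 read 7.20 and 6.54 against 7.53 and 7.35 (-0.57 ± 0.27). Cochaperones of the same Hsp90 cycle thus lay on both sides of 0.

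Partners of CCT were mostly lower. Prefoldin hands nascent chains to CCT and phosducin-like proteins regulate it, and of their 9 genes 2 were higher and 7 lower, with a median of -0.41 that shrank to -0.13 without knockout 2 and to -0.19 without wild type 1. No overlap was seen for 3 of the 9, all lower, where 18.6% of all genes were lower without overlap. Pdcl3 read 6.25 and 7.38 against 8.30 and 7.24, with overlap (-0.96 ± 0.53), and Pdcl read 6.41 and 5.53 against 6.86 and 6.14, also with overlap (-0.53 ± 0.40).

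Genes of the unfolded protein response and of ER folding had 8 of 22 higher and 14 lower (63.6%, against 55% of all genes), with a median of -0.18. All 22 lay above the median level of all genes, where 48.7% of genes were lower. Without overlap 1 of the 22 was higher and 5 were lower, where all genes had 14.5% and 18.6%. Xbp1, a transcription factor of this response, read 6.49 and 6.25 against 6.80 and 6.92, lower without overlap (-0.49 ± 0.17). Atf4, the factor of its translational arm, read 7.95 and 7.83 against 8.25 and 8.50 (-0.48 ± 0.18), and was named after its values were seen. Atf6, the membrane-bound factor, read 6.42 and 7.99 against 6.62 and 6.76, where knockout 2 alone was high (0.52 ± 0.54, and -0.27 without it). The median lay between -0.25 and -0.07 with 1 array left out, nearest to 0 without wild type 1.

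Genes of mitochondrial protein quality control (proteases, the import gene Timm44, Trap1 and Clpb) had 7 of 9 higher. Their median of 0.08 was 0.01 without wild type 2, with 4 genes then lower, and 0.26 without knockout 2. Clpx, the unfoldase of the matrix protease ClpXP, read 7.03 and 7.16 against 6.54 and 6.71, higher without overlap (0.47 ± 0.17). Afg3l2, a subunit of an inner membrane protease, read 7.29 and 6.98 against 6.85 and 6.66, also higher without overlap (0.38 ± 0.19). The plot of the partner lists sets these genes beside the early response list, where all 16 genes lay below 0.

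**Figure D4:**
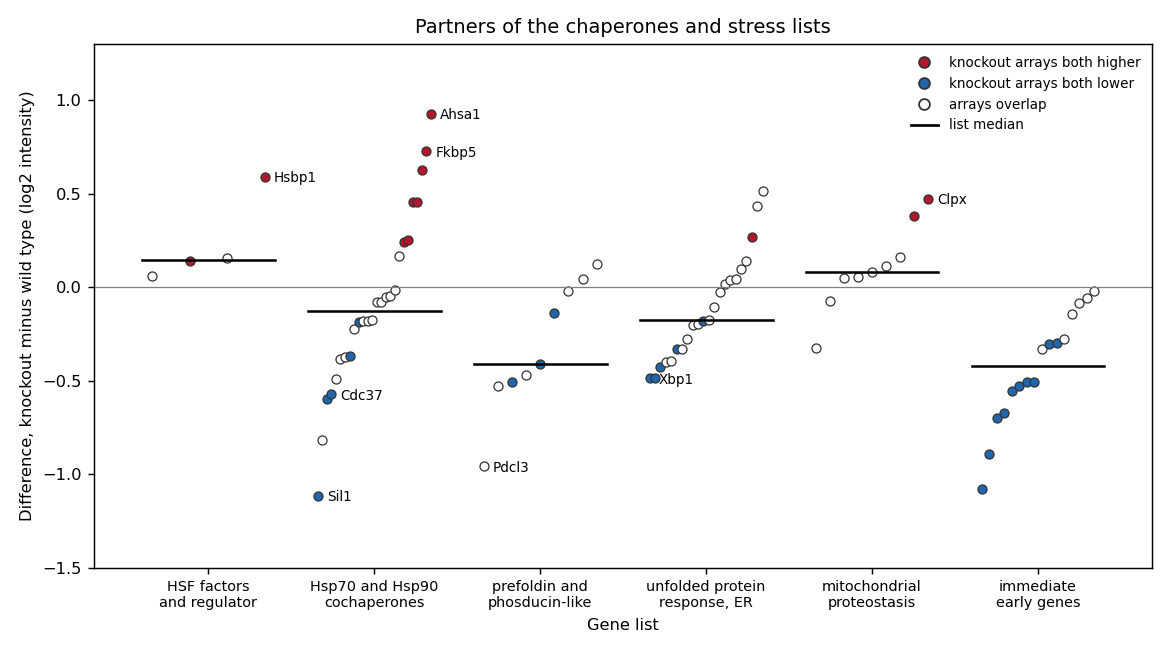
Difference of each gene in the partner and stress lists, knockout minus wild type in log2 intensity (vertical axis), by list (horizontal axis), with list medians as bars and colours for genes without overlap. Cochaperones run from Sil1 (-1.12) to Ahsa1 (0.93), whereas the early response genes all lie below 0 with a median of -0.42.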

How the data were processed

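The authors deposited 1 table of intensities, a value per probe set and array on a linear scale. Per the submitters' processing notes RMA and Affymetrix Expression Console were used, without versions or settings, and per the labels' protocols the RNA went through NuGen Ovation amplification. The log2 of the deposited values was taken with no further normalization. Of 35554 probe sets, the first 6615, which come before the first annotated one, were assumed to be controls and left out. The annotation gave 1 symbol for 21789 of the 28939 tested, several for 1621 (used for no gene) and none for 5529. A gene with several probe sets was represented by the one with the highest mean, and the 80 members came from 103 probe sets.

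Groups were compared with limma 3.58.1 in R 4.3.3 (lmFit and eBayes, two-sided, 2 residual degrees of freedom), after a test on simulated data. The number of arrays limits the precision. Named genes were the best known members, up to 8 non-overlapping members per direction above the median level, the brightest and the 2 most different of each class, and the 2 most different of each list. The members, lists and rules were chosen with earlier results of these data known. Same-numbered arrays are not paired by the labels. The alternatives tried were cyclic loess, a second quantile normalization, dropping dim probe sets, adding 32 before log2, an intensity trend (also with robust estimation), the replicate number as block, leaving out single arrays, averaging a gene's probe sets and keeping the leading probe sets. The probe set among genes of its own chromosome was an alternative added after seeing the data, as were the alternatives for partner genes. Promoter sequences are from RefSeq, GRCm38.p6. The 14 members with no promoter window were not searched for motifs.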

Additional observations from a re-analysis of the deposited data

How the results depend on the processing

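No chaperone gene passed the limma threshold under any alternative run. Over all probe sets limma called 1, and 0 after repeated quantile normalization, with the intensity trend alone or with robust estimation, with 32 added before log2, with the replicate block, with the leading probe sets kept, and with any 1 array left out. Unadjusted limma p was under 0.05 for 1450 probe sets. The replicate block left 0 chaperone genes called, as without it, and deviations of same-numbered arrays correlated at 0.0434 over the 28939 probe sets. Leaving out 1 array makes separation easier and gave 23 to 27 members higher (28.8% to 33.8%, against 27.2% to 31.5% of all genes) and 28 to 30 lower (35% to 37.5%, against 32.6% to 38.8%) without overlap. Of these 2 to 4 were at least 2-fold apart (2.5% to 5%, against 2.46% to 3% of all genes), a count that was 0 with an offset of 32. The median over the 80 genes ranged from -0.05 to 0.04 with 1 array left out. Over the 55 named chaperone and partner genes, 736 of 768 values kept their direction and 32 reversed, in 19 genes with 1 array left out. Cyclic loess gave -0.0178 for Hspa9, -0.0226 for Hspa4 and -0.0193 for Hspd1, and repeated quantile normalization -0.0169 for Hspa9 and -0.0203 for Hspa4. The mean of all probe sets gave -0.42 for Dnajc13. With 1 array left out, ranges that crossed 0 were -0.17 to 0.20 for Hspa9, -0.10 to 0.10 for Hspa4, -0.50 to 0.0583 for Hspb1, -0.21 to 0.23 for Hspd1, -0.25 to 0.12 for Cct2, -0.46 to 0.20 for Hsp90b1, -0.38 to 0.46 for Tcp1, -0.38 to 1.3 for Hspb11, -0.16 to 0.0548 for Hspa8, -0.28 to 0.0169 for Dnaja1, -0.83 to 0.19 for Dnajb9, -0.65 to 1.69 for Dnajc13, -0.28 to 0.0987 for Dnajb6, -2.28 to 0.21 for Dnajb7, -0.11 to 0.85 for Dnajc1, -0.15 to 0.86 for Dnajc3, -0.80 to 1.26 for Dnajc15, -0.27 to 1.3 for Atf6 and -0.12 to 0.42 for Hsf2. The cause of these changes was not tested. With the probe set among genes of its own chromosome, chosen after seeing the data, 12 genes were higher and 17 lower without overlap.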

Other observations

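Several probe sets carried a chaperone symbol together with another symbol and were used for no gene. There were 10, and 4 of them, each listed for Dnajb6 and a predicted gene, read higher in both knockout arrays. Their differences were 0.65 ± 0.31, 0.68 ± 0.28, 0.66 ± 0.28 and 0.57 ± 0.26 (SE, n = 2 per group), with none past the limma threshold. The first of them read 10.42 and 9.71 in knockout against 9.63 and 9.2 in wild type. A pair of probe sets listed for an Hsp70 gene and small nucleolar RNAs of its introns read highest in knockout 2, at 10.34 and 10.45, and differed by 1.20 ± 0.65 and 1.21 ± 0.66 with overlapping arrays, while the probe sets listed for Hspa8 alone differed by -0.05 to 0.05. What these probe sets detect was not tested.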
